A study of Homo sapiens with 12 samples.

Results

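The genes described here are the cyclins and kinases that carry a cell through the G1 phase, together with a pair of their inhibitors. They are 10 in number: the D cyclins CCND1, CCND2 and CCND3, the E cyclins CCNE1 and CCNE2, the kinases CDK2, CDK4 and CDK6, and the inhibitors CDKN1B and CDKN2B. Every probe set that the array's annotation assigns to one of these symbols was taken, whatever its level, which gave 26 of the 54675 probe sets in the deposited table and 10 of the 19775 genes with a probe set of their own. A probe set is a group of short probes that report one transcript or a few related ones, so probe sets of one gene share their RNA and are not replicates.

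Expression was measured on 12 arrays of HK-2 cells, an immortalized human line of renal proximal tubule epithelium. The 4 groups of 3 biological replicates were cells exposed to a high dose of Kbr for 24 h, cells exposed to control vehicle for 24 h, and the same pair of groups at 48 h. The labels give neither the concentration nor the full name of Kbr. All groups were seeded 24 h before treatment, were treated when nearly confluent and grew in a medium with epidermal growth factor, insulin, transferrin, selenite and hydrocortisone. HK-2 is a single line, and it is known as a line immortalized with papillomavirus oncogenes, one of which encodes a protein that binds the retinoblastoma protein RB. The labels call the replicates biological but do not say whether they were separate cultures or days, so the p-values measure the spread between these arrays.

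In G1, growth factor signals raise the D cyclins, which bind CDK4 or CDK6, and these complexes phosphorylate RB and so release E2F transcription factors. E2F drives CCNE1, CCNE2 and genes of DNA replication, and cyclin E bound to CDK2 carries the cell into S phase. CDKN2B encodes p15, which binds CDK4 and CDK6, and CDKN1B encodes p27, which inhibits cyclin E with CDK2. In kidney tubules these genes are studied mainly in repair after injury, when surviving epithelial cells re-enter the cycle.

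The 12 arrays resembled each other in their distribution, with medians between 2.89 and 2.96 on the log2 scale and between 39.1% and 39.9% of probe sets over a log2 value of 4. Replicate 3 of Kbr at 48 h lay farthest from its group, at a root mean square deviation of 0.300 against 0.174 to 0.241 for the other arrays. The 3' control probe set for 18S ribosomal RNA was higher with Kbr, where its log2 values ran from 8.04 to 8.38 against 7.68 to 7.86 in control at 24 h, and from 8.29 to 8.56 against 7.97 to 8.04 at 48 h. The 5' probe set for it had higher means with Kbr but overlapped, at 7.71 to 8.56 against 7.44 to 7.76 and at 8.39 to 9.11 against 7.97 to 8.91. The middle probe set overlapped at 24 h (7.65 to 8.28 against 7.44 to 7.67) and not at 48 h. Of the 10 kidney markers only PAX8 passed the filter on low values. AQP1, GGT1, ANPEP, MME, LRP2, CUBN, SLC34A1, SLC5A2 and PAX2 did not. PAX8 itself was higher in Kbr than in control, with log2 differences of 0.55 (24 h) and 0.56 (48 h). All 5 epithelial markers (KRT8, KRT18, KRT19, EPCAM and CDH1) passed. The log2 of their summed signal was 14.62 to 14.87 in control and 14.18 to 14.40 in Kbr at 24 h. At 48 h it was 14.47 to 14.78 in control and 14.12 to 14.29 in Kbr. Singly, the 5 differed from control by -2.17 to -0.12 on the log2 scale at 24 h. At 48 h they did not all go one way: the differences ran from -2.60 to 0.43, with 4 lower and 1 higher. The fibroblast markers COL1A1, LUM and DCN passed while COL1A2 and PDGFRB did not, and the summed signal of the 5 ran from 12.36 to 12.88 in control and from 11.41 to 11.83 in Kbr at 24 h, and from 12.27 to 12.34 and from 10.17 to 10.59 at 48 h. No endothelial or leukocyte marker passed. These shifts went with Kbr as the results below do, and their part in those results was not tested. The array reads RNA from many cells at once, so fewer cells with a transcript and less transcript per cell cannot be told apart.

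Levels below are the deposited log2 values, in which a difference of 1 is a 2-fold change, and they are compared between groups of one probe set and never between probe sets. A difference was called when limma's adjusted p was under 0.05 over the 22215 probe sets that read above 4 on the log2 scale on 3 or more arrays. Of the 26 probe sets, 20 passed that filter and each of the 10 genes had at least 1 of them. The other 6 were 1562028_at of CCND3, 242105_at of CCNE1, 211803_at of CDK2, 207143_at and 231198_at of CDK6, and 207530_s_at of CDKN2B, and none of these exceeded 4 in any array. The replicate numbers were taken as pairing the arrays, which was inferred from these same values and is not in the labels. Where a fit with the number as a block changes a call, its adjusted p follows the main one.

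**Figure D1:**
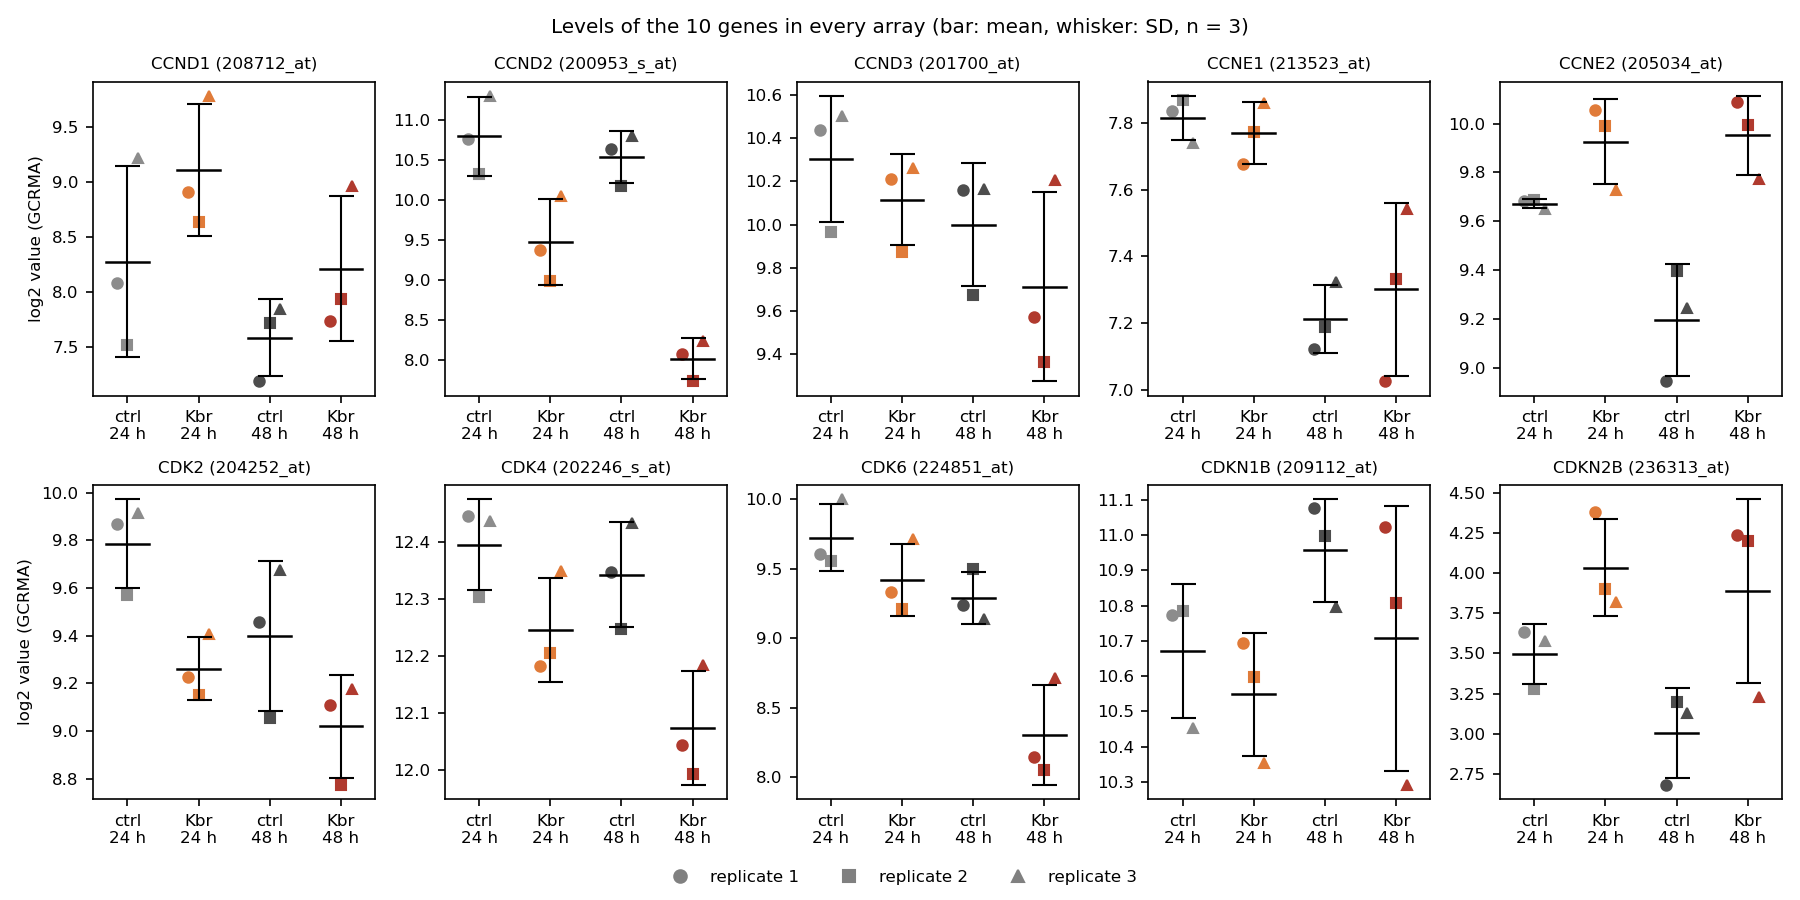
The vertical axis gives the deposited log2 value of each of the 10 genes in all 12 arrays, by the tested probe set with the highest mean, with a separate scale in each panel. Symbols are replicates (circle 1, square 2, triangle 3), long bars are group means and whiskers are SDs (n = 3). CCND2 is lower with Kbr at both times, CCNE2 is apart from control at 48 h, and CDK6 is lowest in Kbr at 48 h.

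After 24 h of Kbr, 2 of the 20 tested probe sets were called, both lower: 1 of CCND2 and 1 of CDK2. Over all tested probe sets 25.7% were called at this time, 11.3% higher and 14.4% lower, so the share among the G1 genes was not above the background. The 2 groups did not overlap in 5 of the 20 probe sets, against 47.5% of all tested ones. The median difference of the 20 was -0.17 on the log2 scale, beside -0.01 over all tested probe sets. With the replicate block 7 of the 20 were called, 2 higher and 5 lower, where 41.7% of all tested probe sets were called.

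After 48 h, 8 of the 20 were called, 3 higher (2 of CCNE2 and 1 of CDKN2B) and 5 lower (1 of CCND2, 1 of CDK4 and 3 of CDK6). This stood beside 54.6% of all tested probe sets, 26.8% higher and 27.8% lower. The CDKN2B probe set passed the filter only through Kbr arrays, so its call is counted here but is no support. Groups did not overlap in 10 of the 20, against 59.6% of all tested ones, and the median difference was -0.32 against 0.00. The block gave 15 calls, 4 higher and 11 lower, where 65.5% of all tested probe sets were called.

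**Figure D2:**
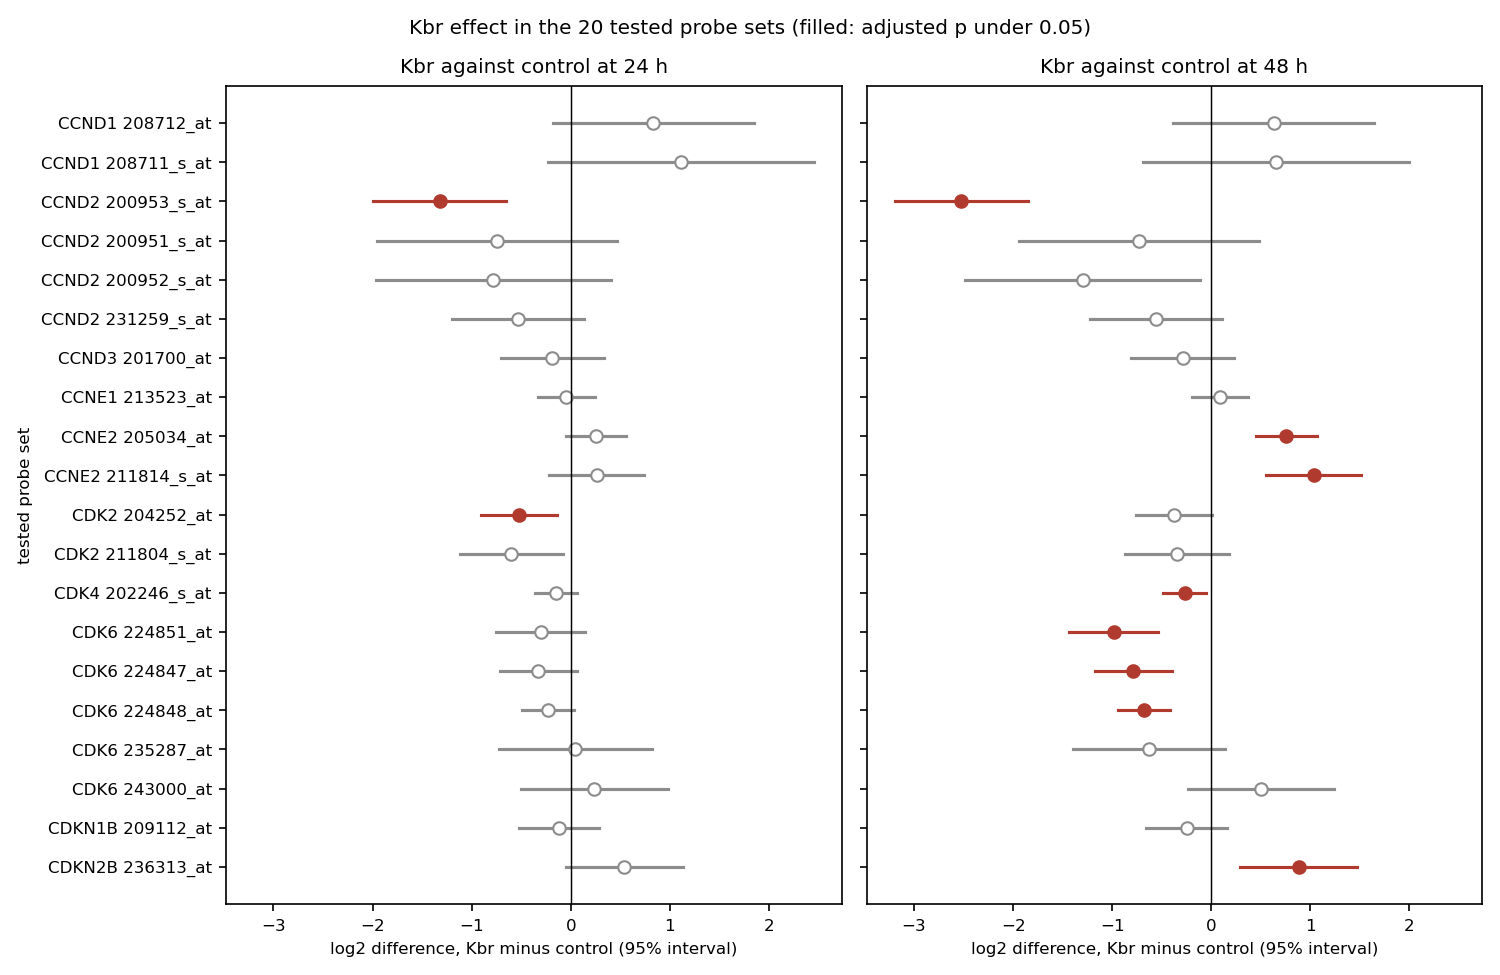
Each row is 1 of the 20 tested probe sets, and the horizontal axis is the log2 difference, Kbr minus control, with its 95% interval from limma (12 arrays). Filled symbols have an adjusted p under 0.05: 2 at 24 h, both lower, and 8 at 48 h, of which 3 are higher and 5 lower. The 3 include 236313_at of CDKN2B, which passed the filter only through Kbr arrays, so its call is no support.

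The D cyclins did not move together. CCND2 fell at both times, CCND1 was higher with Kbr in every numbered pair without reaching the threshold in the fit without the block, and no difference was called for CCND3. CCND2 encodes cyclin D2, a D cyclin that like the others activates CDK4 and CDK6. For its probe set 200953_s_at the control arrays at 24 h read 10.76, 10.32 and 11.30, and the Kbr arrays 9.38, 8.99 and 10.05. At 48 h the control arrays read 10.64, 10.17 and 10.80 and the Kbr arrays 8.07, 7.73 and 8.23. Every Kbr array lay below every control array at its time, and all 3 pairs were lower by nearly the same amount, between -1.39 and -1.26 at 24 h and between -2.57 and -2.44 at 48 h. The difference was -1.32 at 24 h (SE 0.30, adjusted p = 0.00975), a 2.50-fold lower level, and -2.52 at 48 h (SE 0.30, adjusted p = 5.6e-05), a 5.75-fold lower level. In order of level the groups ran from control at 24 h (10.80 ± 0.49) and control at 48 h (10.54 ± 0.33), which overlapped, to Kbr at 24 h (9.47 ± 0.54) and Kbr at 48 h (8.01 ± 0.26), which overlapped with no neighbour (SD, n = 3). The difference was past the threshold without any 1 of the 12 arrays at both times. As the mean over the gene's 4 probe sets the 24 h difference was -0.85 with an adjusted p of 0.12.

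The other 3 probe sets of CCND2 were also lower with Kbr, but their arrays scattered more. At 24 h their differences were -0.75 (200951_s_at), -0.78 (200952_s_at) and -0.53 (231259_s_at), with adjusted p between 0.219 and 0.344. At 48 h they were -0.73, -1.30 and -0.56 in that order, with adjusted p of 0.285, 0.0611 and 0.141. All 3 numbered pairs of each of these probe sets were lower at both times. With the block, 200951_s_at and 231259_s_at were called at 24 h (adjusted p = 0.00284 and 0.0384) and all 3 at 48 h (0.00135, 0.00422 and 0.0204). Probe set 200952_s_at passed at 48 h when any of 4 arrays was left out (replicates 2 and 3 of control at 24 h, replicate 2 of control at 48 h or replicate 3 of Kbr at 48 h; adjusted p from 0.0189 to 0.0449). Across the 12 arrays the probe sets of CCND2 correlated with each other at Pearson r between 0.757 and 0.892, a description over arrays that share the treatment contrast. Probe set 231259_s_at lay close to the filter, with control arrays between 4.12 and 5.39 and Kbr arrays between 3.86 and 4.45, so a fold from it understates any change.

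CCND1 encodes cyclin D1, the D cyclin most often studied as a target of growth factor signals. Its probe set 208712_at read 8.09, 7.52 and 9.22 in control and 8.91, 8.64 and 9.79 in Kbr at 24 h, so the groups overlapped although each Kbr array was above the control array of its number. At 48 h the values were 7.19, 7.71 and 7.85 in control and 7.74, 7.93 and 8.97 in Kbr, again with overlap. The difference was 0.83 at 24 h (95% interval -0.18 to 1.85, adjusted p = 0.207) and 0.63 at 48 h (-0.39 to 1.65, adjusted p = 0.271). With the block both were called, at an adjusted p of 0.0234 and 0.0458. The second probe set, 208711_s_at, gave 1.11 at 24 h (adjusted p = 0.204, with the block 0.0189) and 0.66 at 48 h (adjusted p = 0.383, with the block 0.0869). At 24 h all 3 pairs of both probe sets were higher, by at least 0.56 in 208712_at and 0.80 in 208711_s_at. The 48 h difference leaned on replicate 3 of Kbr at 48 h, whose value in 208711_s_at was 8.22 against 6.06 and 6.38: without it the difference was -0.01 in 208711_s_at. Without replicate 3 of control at 24 h the 24 h difference of 208712_at was 1.31 with an adjusted p of 0.0487. The 2 probe sets correlated at r = 0.960 over the 12 arrays.

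CCND3, which encodes cyclin D3, read 10.30 ± 0.29 in control and 10.12 ± 0.21 in Kbr at 24 h, and 10.00 ± 0.28 and 9.71 ± 0.44 at 48 h (201700_at; SD, n = 3). The groups overlapped at both times. The differences were -0.19 (95% interval -0.71 to 0.33) and -0.29 (-0.81 to 0.23), with adjusted p of 0.591 and 0.325.

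**Figure D3:**
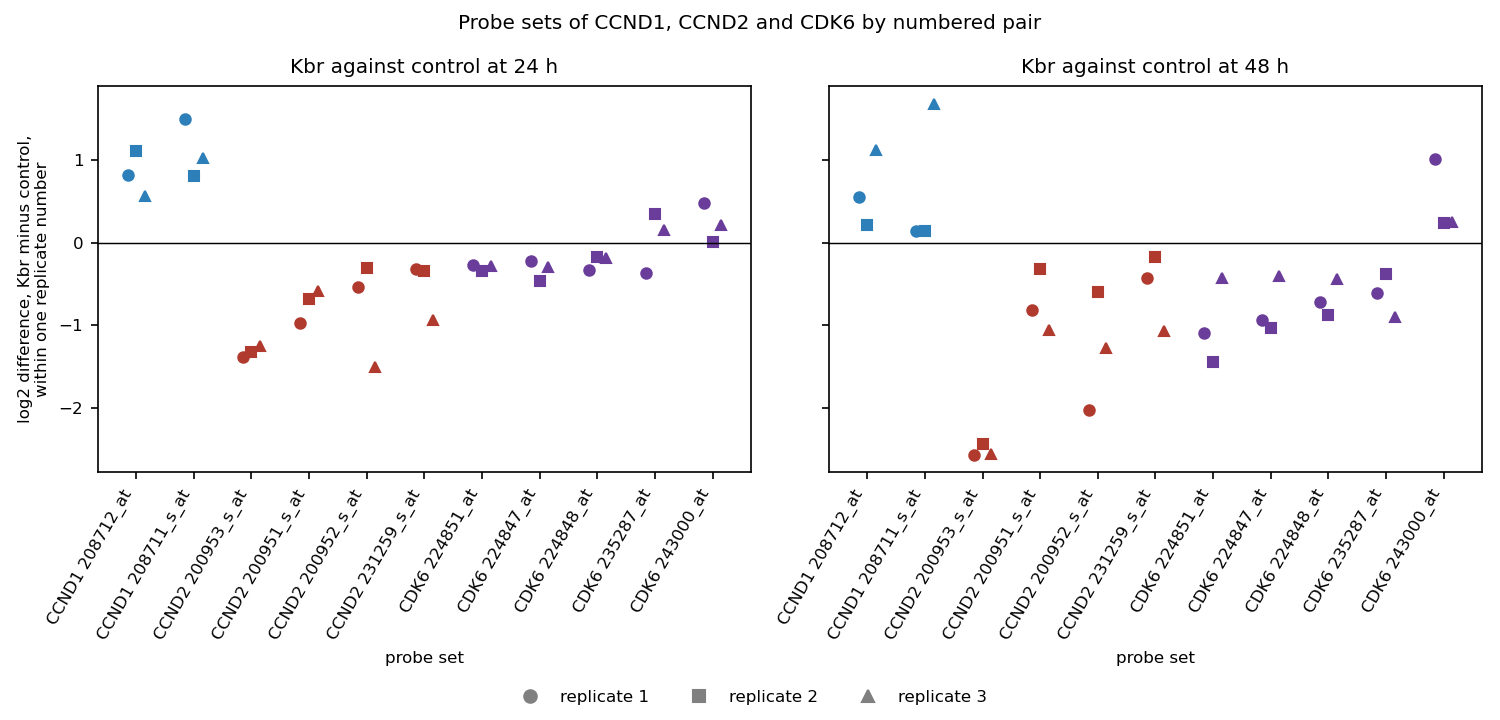
The vertical axis is the log2 difference between the Kbr array and the control array of the same replicate number, for the tested probe sets of CCND1 (blue), CCND2 (red) and CDK6 (purple), with the pairs as circle (replicate 1), square (2) and triangle (3). All CCND2 pairs are below 0 and all CCND1 pairs above 0 at both times, and for 200953_s_at of CCND2 the 3 pairs nearly coincide.

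CCND2, CCND1 and CDK6 are the 3 of these genes with the widest range of group means, at 2.78, 1.53 and 1.42 log2 units. Over the 12 arrays the genes whose pattern was most like that of CCND2 were ARPC1B (r = 0.982), APEH (0.982) and ETHE1 (0.980). Those most like CCND1 were PITRM1 (0.958), PRPS1 (0.942) and SMS (0.938), and those most like CDK6 were XKR4 (0.973), COL6A1 (0.966) and TMEM43 (0.963). These are the highest Pearson r among 10574 tested genes, and every one rests on the same 12 arrays and their 4 groups.

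The E cyclins differed from each other. Both probe sets of CCNE2 were higher with Kbr at 48 h, and none of the differences of CCNE1 between Kbr and control was called. CCNE2 encodes cyclin E2, a partner of CDK2. In 205034_at the control arrays at 24 h read 9.68, 9.69 and 9.65 and the Kbr arrays 10.06, 9.99 and 9.73, without overlap but close together. At 48 h the control arrays read 8.94, 9.40 and 9.25 and the Kbr arrays 10.09, 9.99 and 9.77. The Kbr groups read 9.92 ± 0.17 and 9.95 ± 0.16 at the 2 times, whereas control read 9.67 ± 0.02 and then 9.20 ± 0.23 (SD, n = 3). Kbr differed from control by 0.25 at 24 h (95% interval -0.05 to 0.56, adjusted p = 0.204) and by 0.76 at 48 h (SE 0.14, adjusted p = 0.000899), a 1.69-fold higher level.

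Probe set 211814_s_at of CCNE2 was also higher with Kbr at 48 h. Its control arrays read 8.16, 8.40 and 8.47 at 24 h and 6.99, 7.66 and 7.93 at 48 h, and its Kbr arrays 8.42, 8.79 and 8.60 and then 8.32, 8.72 and 8.63. Kbr arrays overlapped with control at 24 h and lay above all control arrays at 48 h. The difference was 0.26 at 24 h (adjusted p = 0.403) and 1.03 at 48 h (SE 0.22, adjusted p = 0.00211), a 2.04-fold higher level. Both 48 h calls held without any 1 of the 12 arrays. The difference between the 2 effects was 0.50 for 205034_at (adjusted p = 0.162) and 0.77 for 211814_s_at (adjusted p = 0.169, with the block 0.0287).

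CCNE1 encodes cyclin E1, the other partner of CDK2 at the entry to S phase. In 213523_at the control arrays read 7.83, 7.87 and 7.74 at 24 h and 7.12, 7.19 and 7.32 at 48 h, and the Kbr arrays 7.68, 7.77 and 7.86 and then 7.03, 7.33 and 7.54. Kbr and control overlapped at each time, while the 24 h arrays of each treatment lay above its 48 h arrays. Kbr differed from control by -0.04 at 24 h (95% interval -0.33 to 0.24) and by 0.09 at 48 h (-0.20 to 0.38), with adjusted p of 0.832 and 0.584. From 24 h to 48 h the level fell by 0.60 in control (SE 0.13, adjusted p = 0.046) and by 0.47 with Kbr (SE 0.13, adjusted p = 0.0384). The fall in control lost its call without any 1 of 9 arrays, all but replicates 1 and 3 of Kbr at 48 h and replicate 3 of control at 48 h, at adjusted p from 0.0672 to 0.157. The fall with Kbr lost its call without any 1 of 8 arrays (all 3 of Kbr at 24 h, replicates 1 and 2 of Kbr at 48 h, replicates 1 and 2 of control at 24 h and replicate 2 of control at 48 h), at adjusted p from 0.0515 to 0.126. Both calls also ended with no filter (0.0848 and 0.0776), with quantile normalization (0.0579 and 0.0677), with only the groups compared (0.157 and 0.111) and as the mean of the gene's probe sets (-0.28 and -0.24, adjusted p = 0.0789 and 0.0646). That mean includes 242105_at, which exceeded 4 in no array and so dilutes the difference. The block kept both calls, at 0.00888 and 0.0129. The bases just before its annotated start are shown because CCNE1 fell with time under both treatments, as 224848_at of CDK6 did. They lie at chr19:29811741-29811990 on the + strand of GRCh38.p14 and come from RefSeq, and capitals mark its 7 matches to the GC box GGGCGG on either strand.
CCNE1 promoter: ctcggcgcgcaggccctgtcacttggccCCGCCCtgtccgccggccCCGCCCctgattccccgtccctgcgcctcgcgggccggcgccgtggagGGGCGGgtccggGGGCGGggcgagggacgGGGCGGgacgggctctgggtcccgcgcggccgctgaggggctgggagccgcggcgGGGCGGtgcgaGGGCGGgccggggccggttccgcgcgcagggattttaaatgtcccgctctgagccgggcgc

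**Figure D4:**
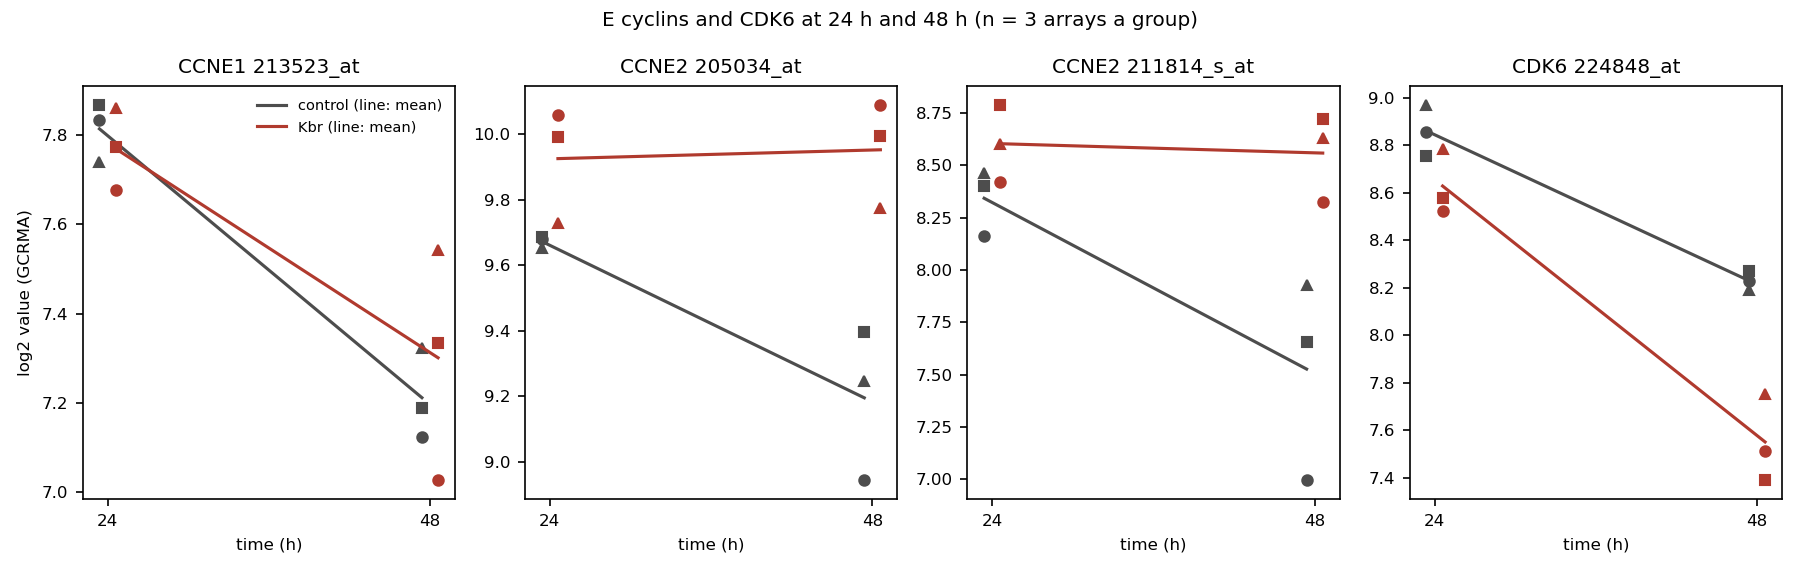
The vertical axis is the deposited log2 value and the horizontal axis the time in hours, for CCNE1, both probe sets of CCNE2 and 224848_at of CDK6. That CDK6 probe set was picked for its smallest adjusted p among those of the gene for Kbr against control at 48 h. Symbols are arrays (circle replicate 1, square 2, triangle 3) and lines join group means of 3 arrays in control (grey) and Kbr (red). CCNE1 is lower at 48 h in both treatments, and CCNE2 is lower at 48 h on the control line and level on the Kbr line. Probe set 224848_at of CDK6 is lower at 48 h on both lines and lowest with Kbr.

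Among the kinases, in the fit without the block, CDK6 was called lower with Kbr at 48 h in 3 of its 5 tested probe sets. CDK4 was called lower by a small amount at 48 h. CDK2 was called lower in 204252_at at 24 h, and with the block at 48 h too. The difference between the effects at 48 h and 24 h in that CDK2 probe set was 0.15 (adjusted p = 0.781). CDK6 encodes a catalytic partner of the D cyclins. In 224851_at the control arrays read 9.61, 9.56 and 10.00 at 24 h and 9.24, 9.50 and 9.14 at 48 h. The Kbr arrays read 9.33, 9.21 and 9.71 at 24 h and 8.15, 8.05 and 8.71 at 48 h. The groups overlapped at 24 h, and the Kbr arrays at 48 h lay below all the others. The difference was -0.30 at 24 h (95% interval -0.75 to 0.15, adjusted p = 0.298) and -0.99 at 48 h (SE 0.20, adjusted p = 0.00192), a 1.98-fold lower level. The order of the groups was control at 24 h (9.72 ± 0.24), Kbr at 24 h (9.42 ± 0.26), control at 48 h (9.29 ± 0.19) and Kbr at 48 h (8.30 ± 0.36), where the first 3 overlapped as neighbours (SD, n = 3).

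Probe sets 224847_at and 224848_at of CDK6 gave the same picture, at -0.79 (adjusted p = 0.00307) and -0.68 (adjusted p = 0.000619) at 48 h. The 3 called probe sets correlated at r from 0.954 to 0.983 over the arrays and kept their calls without any 1 of the 12 arrays. The other tested probe sets of CDK6 were not called at 48 h, and they went in opposite directions. In 235287_at the 48 h difference was -0.63 (95% interval -1.40 to 0.14, adjusted p = 0.15, with the block 0.00731) and all 3 pairs were lower, and in 243000_at it was 0.50 (-0.24 to 1.24, adjusted p = 0.229), with all 3 Kbr arrays (5.35, 5.37 and 5.50) above the control arrays (4.34, 5.12 and 5.25). Over the arrays 235287_at correlated with the 3 called probe sets at r from 0.760 to 0.839 and 243000_at at r from 0.330 to 0.382. Averaged over all probe sets of the gene, the 48 h difference was -0.37 with an adjusted p of 0.0593. That mean also includes 207143_at and 231198_at, which exceeded 4 in no array and so dilute the difference.

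RefSeq lists 2 separate start sites for CDK6, 2614 bases apart, and the array values do not say which of them a probe set's transcripts use. The 250 bases before each are shown because probe sets of this gene disagreed. The first lies at chr7:92836574-92836823 and the other at chr7:92833960-92834209, both on the - strand of GRCh38.p14, and capitals mark GC boxes (GGGCGG on either strand), of which the first has 3 and the other 0.
CDK6 start 1: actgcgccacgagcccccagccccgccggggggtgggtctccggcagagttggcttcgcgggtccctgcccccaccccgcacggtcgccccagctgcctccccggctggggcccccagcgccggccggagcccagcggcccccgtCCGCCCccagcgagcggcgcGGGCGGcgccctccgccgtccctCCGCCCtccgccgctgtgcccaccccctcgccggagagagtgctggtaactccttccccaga
CDK6 start 2: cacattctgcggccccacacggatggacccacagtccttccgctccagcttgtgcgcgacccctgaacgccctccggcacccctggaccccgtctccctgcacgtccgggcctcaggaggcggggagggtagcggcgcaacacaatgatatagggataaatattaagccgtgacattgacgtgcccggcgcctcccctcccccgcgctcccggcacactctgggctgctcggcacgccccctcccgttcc

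CDK4 encodes the other kinase of the D cyclins. Its only probe set, 202246_s_at, read 12.39 ± 0.08 in control and 12.25 ± 0.09 in Kbr at 24 h, and 12.34 ± 0.09 and 12.07 ± 0.10 at 48 h (SD, n = 3). At 48 h the control arrays were 12.35, 12.25 and 12.43 and the Kbr arrays 12.04, 11.99 and 12.18, so the groups did not overlap and the 3 pairs differed by between -0.30 and -0.25. The difference of -0.15 at 24 h was not called (adjusted p = 0.288), and that of -0.27 at 48 h was called at an adjusted p of 0.0378, a 1.21-fold lower level. The 48 h call was lost without any 1 of 5 arrays (replicate 2 of Kbr at 24 h, replicates 1 and 2 of Kbr at 48 h, replicates 1 and 3 of control at 48 h), at adjusted p from 0.0508 to 0.121, and with only the groups compared (0.0984). The gene's promoter is shown as the one with E boxes among the 6 genes whose promoters were searched, the motif CACGTG that MYC and related factors bind. It lies at chr12:57752311-57752560 on the - strand of GRCh38.p14, and capitals mark 3 matches that begin at -216, -196 and -101 from the start.
CDK4 promoter: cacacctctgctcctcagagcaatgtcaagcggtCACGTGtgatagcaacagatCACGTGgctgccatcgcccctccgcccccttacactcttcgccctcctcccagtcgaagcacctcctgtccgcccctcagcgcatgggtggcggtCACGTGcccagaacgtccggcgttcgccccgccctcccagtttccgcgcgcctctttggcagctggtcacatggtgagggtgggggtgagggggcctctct

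CDK2 encodes the kinase that works with cyclin E. In 204252_at the control arrays at 24 h read 9.87, 9.57 and 9.91 and the Kbr arrays 9.23, 9.15 and 9.41, with no overlap. At 48 h control read 9.46, 9.06 and 9.68 and Kbr 9.11, 8.77 and 9.18, and the groups overlapped although each pair was lower. The difference was -0.52 at 24 h (SE 0.17, adjusted p = 0.047), a 1.44-fold lower level, and -0.38 at 48 h (95% interval -0.76 to 0.00, adjusted p = 0.0866, with the block 0.00453). The 24 h call was lost without any 1 of 7 arrays (all 3 of Kbr at 24 h, replicate 1 of Kbr at 48 h, replicates 1 and 3 of control at 24 h and replicate 1 of control at 48 h), at adjusted p from 0.0574 to 0.137. It also ended with no filter (0.124) and as the mean of the gene's probe sets (-0.37, adjusted p = 0.063). That mean includes 211803_at, which exceeded 4 in no array and so dilutes the difference. Without replicate 2 of control at 48 h the 48 h difference was -0.55 and passed, at 0.0184. The second probe set, 211804_s_at, gave -0.60 at 24 h (adjusted p = 0.0849, with the block 0.0143) and -0.35 at 48 h (adjusted p = 0.239). Without replicate 2 of control at 48 h its adjusted p was 0.0392 at 24 h and 0.0339 at 48 h.

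Of the inhibitors, CDKN2B was higher with Kbr at 48 h at low values, a call that is no support as described below. No difference was called for CDKN1B in the fit without the block. CDKN2B encodes p15, an inhibitor of CDK4 and CDK6. In 236313_at the control arrays read 3.63, 3.28 and 3.58 at 24 h and 2.68, 3.20 and 3.13 at 48 h, and the Kbr arrays 4.38, 3.90 and 3.82 and then 4.24, 4.20 and 3.23. Each Kbr array lay above every control array of its time, and the third pair at 48 h differed by 0.10 against 1.56 and 1.00 in the others. The difference was 0.54 at 24 h (95% interval -0.05 to 1.13, adjusted p = 0.163) and 0.88 at 48 h (SE 0.27, adjusted p = 0.0163). No fold is given, since all control arrays and 1 of the Kbr arrays at 48 h read below the filter level of 4. This probe set exceeded a log2 value of 4 in exactly 3 arrays, all of them with Kbr, so it entered the test through the group in which it was high and its call is no support. The call was lost without replicate 1 or 2 of Kbr at 48 h or replicate 1 of control at 48 h (adjusted p from 0.0655 to 0.0664), without a filter (0.0631), with only the groups compared (0.0503), and with an offset of 32 added before the log (0.24, adjusted p = 0.0512). The gene's promoter lies at chr9:22009306-22009555 on the - strand of GRCh38.p14 and is shown beside those of the kinases that p15 binds, with capitals on 2 GC boxes.
CDKN2B promoter: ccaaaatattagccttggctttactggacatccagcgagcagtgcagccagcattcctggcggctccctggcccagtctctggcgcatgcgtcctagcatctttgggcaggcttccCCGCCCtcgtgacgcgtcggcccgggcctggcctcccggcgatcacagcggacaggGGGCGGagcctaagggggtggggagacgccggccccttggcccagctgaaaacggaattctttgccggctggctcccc

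CDKN1B encodes p27, an inhibitor of cyclin E with CDK2. Its probe set 209112_at read 10.67 ± 0.19 in control and 10.55 ± 0.17 in Kbr at 24 h, and 10.96 ± 0.15 and 10.71 ± 0.38 at 48 h (SD, n = 3). All 3 pairs were lower with Kbr at both times and the groups overlapped. The differences were -0.12 (95% interval -0.53 to 0.28, adjusted p = 0.658) and -0.25 (-0.65 to 0.16, adjusted p = 0.274, with the block 0.0457).

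RefSeq promoters were found for 6 of the 10 genes, in 9 entries: CCND3, CCNE1, CDK4, CDK6, CDKN1B and CDKN2B. Those of CCND1, CCND2, CCNE2 and CDK2 are not shown here. In all, 8 motifs were searched. The GC box GGGCGG stood in the 250 bases of 42.6% of all 35116 promoters, and the E box CACGTG in 6.34%, both strands counted. Among the 9 entries the GC box was found for each of the 6 genes, though not in every entry of CCND3 and CDK6. The E2F motif, spelled TTTCCCGC, TTTGGCGC, TTTCGCGC or TTTGCCGC, stood in 2.79% of all promoters and in none of the 9 entries. The AP-1 motif TGACTCA stood in 4.2% of all promoters, and also in none of the 9. The antioxidant motif TGACNNNGC, where N is any base, stood in 10.9% of all promoters. It was found for CCNE1, CDK4 and CDKN1B, beginning at -238, -231 and -17 from the start. The CRE motif TGACGTCA (1.65% of all promoters), the forkhead motif GTAAACA (2.98%) and the TATA box TATAAA (10.7%) stood in none of the 9. A match or its absence says only which letters this window holds.

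Between the times, in control, 2 of the 20 tested probe sets were called lower at 48 h than at 24 h and 0 higher, beside 1.78% of all tested probe sets, 0.932% lower and 0.851% higher. These were 213523_at of CCNE1, described above, and 224848_at of CDK6, which fell by 0.63 (adjusted p = 0.0321). The CDK6 call was lost without any 1 of 6 arrays (replicates 1 and 2 of Kbr at 24 h, replicates 1 and 3 of control at 24 h, replicates 1 and 2 of control at 48 h), at adjusted p from 0.0563 to 0.147, and with only the groups compared (0.145). CCNE2 was lower by 0.48 in 205034_at (adjusted p = 0.1, with the block 0.037) and by 0.82 in 211814_s_at (adjusted p = 0.0804, with the block 0.00691). The latter passed without replicate 3 of control at 48 h (-1.02, adjusted p = 0.0358). With the block 7 of the 20 were called, all lower, where 16.1% of all tested probe sets were called. The other 3 of these 7 were 200951_s_at of CCND2 (-0.92, adjusted p with the block 0.00484), 204252_at of CDK2 (-0.39, 0.0208) and 235287_at of CDK6 (-0.68, 0.0238).

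With Kbr, 6 of the 20 were lower at 48 h than at 24 h and 0 were higher, beside 13.2% of all tested probe sets, 7.66% lower and 5.52% higher. CCND2 fell by 1.46 in 200953_s_at (adjusted p = 0.0127), a call lost without replicate 2 of Kbr at 48 h (-1.32, adjusted p = 0.0565), with no filter (0.0525) and as the mean of the gene's probe sets (-0.91, adjusted p = 0.137). CDK6 fell in 4 of its 5 tested probe sets, by 1.11 in 224851_at, 0.92 in 224847_at, 1.08 in 224848_at and 1.36 in 235287_at, with adjusted p of 0.00742, 0.009, 0.000852 and 0.0298. The call of 235287_at was lost without replicate 2 or 3 of Kbr at 24 h or replicate 1 or 2 of Kbr at 48 h, at adjusted p from 0.0679 to 0.111, with no filter (0.111) and with only the groups compared (0.0693). CCNE1 is the remaining one. CCNE2 differed by 0.03 (205034_at, adjusted p = 0.933) and -0.04 (211814_s_at, adjusted p = 0.927), with 95% intervals of -0.28 to 0.33 and -0.52 to 0.43. With the block 11 were called, all lower, where 28.2% of all tested probe sets were called. The 5 added were both probe sets of CCND1 (-0.90 and -0.99, adjusted p with the block 0.025 and 0.0408), 2 more of CCND2 (-0.90 in 200951_s_at and -1.02 in 200952_s_at, 0.00267 and 0.033) and 201700_at of CCND3 (-0.40, 0.0374).

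Whether the Kbr effect itself differed between 24 h and 48 h was tested as an interaction, which shares all its arrays with the comparisons above. By limma 0 of the 20 were called, beside 4.29% of all tested probe sets. By its probe set of highest mean, none of the 10 genes was called, where 4.4% of all tested genes were. Without adjustment 5 of the 20 had a p under 0.05, 2 toward higher and 3 toward lower at 48 h, and so did 3 of the 10 genes. The shares of all probe sets and genes at that looser threshold are not given here, so these 2 counts have no background beside them. The 5 were 200953_s_at of CCND2 (-1.20, adjusted p = 0.133), both probe sets of CCNE2, and 224851_at (-0.68, adjusted p = 0.193) and 224848_at (-0.45, adjusted p = 0.146) of CDK6. With the block 3 were called, where 16.2% of all tested probe sets were: 200953_s_at of CCND2 (adjusted p = 0.00558), 211814_s_at of CCNE2 (0.0287) and 224848_at of CDK6 (0.0485). Without replicate 3 of Kbr at 48 h, the array farthest from its group, 2 of the 20 were called, 224851_at (-0.89, adjusted p = 0.0495) and 224848_at (-0.55, adjusted p = 0.0468) of CDK6. In that fit 2441 of all 22215 tested probe sets were called.

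The rest of the pathway is given by 4 lists of genes, each gene by its probe set of highest mean. Over all 10574 tested genes 11.4% were called higher and 18.5% lower at 24 h, and 26.1% and 32% at 48 h, with a median difference of -0.06 at both times. Of the 10 G1 genes taken in the same way, 0 were higher and 2 lower at 24 h (CCND2 and CDK2), the same 2 that had an unadjusted p under 0.05. At 48 h 2 were higher (CCNE2 and CDKN2B) and 3 lower (CCND2, CDK4 and CDK6). CDKN2B passed the filter only through Kbr arrays, so its call is no support. The medians of the 10 were -0.14 and -0.26.

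Among partners and regulators of the G1 kinases, of 28 tested, 7 were higher and 2 lower at 24 h, and 12 were higher and 4 lower at 48 h, with medians of 0.07 and 0.28. E2F3, an activating E2F, was higher by 0.87 at 24 h (SE 0.11, adjusted p = 0.000603), in 3 of 3 pairs. RBL2, which encodes the RB relative p130, fell by 0.87 at 24 h (SE 0.13, adjusted p = 0.00102) and by 1.80 at 48 h (SE 0.13, adjusted p = 2.5e-06), from 10.02 ± 0.12 in control to 8.22 ± 0.17 (SD, n = 3). CUL1, the scaffold of the ubiquitin ligase that turns over cyclin E and p27, was higher by 0.83 at 24 h (adjusted p = 0.000563) in the probe set of highest mean, while its preferred probe set without a suffix letter gave 0.13 (adjusted p = 0.682). CDC25A, the phosphatase that activates CDK2, was higher by 1.69 at 48 h (SE 0.18, adjusted p = 2.2e-05). CDKN1A, which encodes the CDK inhibitor p21, rose by 1.68 at 48 h (SE 0.16, adjusted p = 1.46e-05), from 9.36 ± 0.37 in control to 11.04 ± 0.04 (SD, n = 3).

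Among genes that E2F drives at S phase entry, of 27 tested, 2 were higher and 8 lower at 24 h, and 7 were higher and 6 lower at 48 h, with medians of -0.16 and 0.09. POLA1, the catalytic subunit of DNA polymerase alpha, fell by 0.93 at 24 h and by 1.02 at 48 h (SE 0.12 at both, adjusted p = 0.0006 and 5.19e-05). MCM5 and MCM6, subunits of the replicative helicase, fell by 0.86 and 0.79 at 24 h (adjusted p = 0.00314 and 0.00126). CDC6 and ORC1, which load that helicase onto origins, were higher at 48 h by 2.80 (SE 0.27, adjusted p = 1.28e-05) and 1.56 (SE 0.22, adjusted p = 0.000175). In control, 6 of these 27 genes were called lower at 48 h than at 24 h and 0 higher, beside 1.31% of all tested genes called lower and 0.955% higher. Without adjustment 23 of the 27 had a p under 0.05 toward lower, and the share of all tested genes at that looser threshold is not given here. CCNE1 and CCNE2, themselves E2F targets, stood at -0.60 and -0.48 in the same comparison. With Kbr, 5 of the 27 were lower at 48 h than at 24 h (CCNA2, RRM2, POLA1, GINS1 and GINS2, from -0.69 to -0.34) and 1 was higher (CDC6, 0.95), beside 8.8% and 6.07% of all tested genes.

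Of the other cyclins and cyclin-dependent kinases, 6 of 28 tested were higher and 2 lower at 24 h, and 11 higher and 8 lower at 48 h, with a median of 0.07 at both times. CDK12, a kinase of transcription elongation, was higher by 0.72 at 24 h and 1.27 at 48 h (SE 0.15, adjusted p = 0.00558 and 4.36e-05). CCNB1, the mitotic cyclin B1, was higher by 0.68 and 1.19 (SE 0.15, adjusted p = 0.00832 and 7.88e-05). CCNT1, the cyclin of the elongation kinase CDK9, was higher by 1.15 at 48 h (adjusted p = 0.00133). CDK14 fell by 0.73 at 24 h (adjusted p = 0.034), a call lost without replicate 2 or 3 of Kbr at 24 h or replicate 1 of control at 24 h (adjusted p from 0.0957 to 0.133) under quantile normalization (0.063) and with no filter (0.111).

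Among genes of growth factor signalling towards the D cyclins, of 23 tested, 4 were higher and 7 lower at 24 h, and 5 higher and 10 lower at 48 h, with medians of -0.29 and -0.32. The largest differences belonged to transcription factors that respond to such signals. FOSL1, an AP-1 subunit, was higher by 2.10 at 24 h (SE 0.68, adjusted p = 0.0443) and by 3.49 at 48 h (adjusted p = 0.00139), with control at 4.16 ± 1.13 and Kbr at 7.65 ± 0.72 at the later time (SD, n = 3). Its 24 h call was lost without any 1 of 7 arrays (all 3 of Kbr at 24 h, replicates 1 and 2 of control at 24 h, replicate 1 of Kbr at 48 h or replicate 1 of control at 48 h), at adjusted p from 0.0566 to 0.142, with no filter (0.149) and with only the groups compared (0.055). EGR1, an immediate early factor, fell by 1.82 at 24 h and by 2.60 at 48 h (SE 0.15, adjusted p = 8.89e-05 and 1.27e-06). ETS2, a factor of the ETS family, was higher by 1.69 and 2.22 (SE 0.16, adjusted p = 0.00013 and 2.75e-06).

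**Figure D5:**
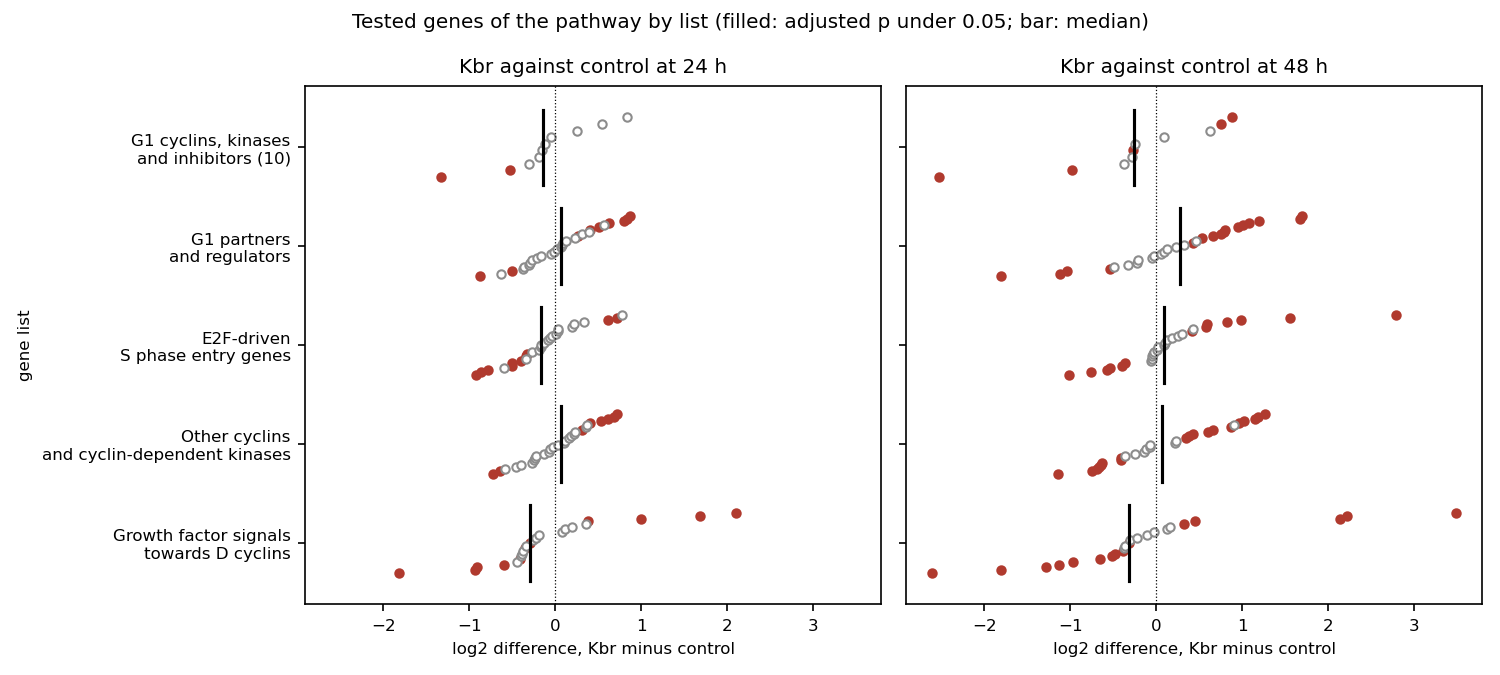
Each symbol is 1 tested gene by its highest-mean probe set, the horizontal axis is the log2 difference, Kbr minus control, and rows are gene lists with a bar at the median. Filled symbols have an adjusted p under 0.05. The 10 G1 genes have medians of -0.14 at 24 h and -0.26 at 48 h, and the partners and regulators have 0.07 and 0.28.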

How the data were processed

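RNA of 12 samples of HK-2 cells (4 groups of 3) was read on Affymetrix arrays. The authors deposited log2 values made with GCRMA, per the submitters' processing notes (no version stated there); GCRMA corrects background by probe sequence and normalizes between arrays, which pulls low signals towards a common floor. Scanner files were not used here. Probe sets were named from the platform's annotation: 41091 had 1 gene symbol, 1801 several and 11721 none, and 62 control probe sets were left out of the fits.

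Groups were compared with lmFit and eBayes of limma 3.58.1 (R 4.3.3), with all 12 arrays in the fit, over the 22215 probe sets that read above 4 on the log2 scale on 3 or more arrays. Tests were two-sided, with Benjamini-Hochberg adjustment over all of them and calls at an adjusted p under 0.05. There were 5 comparisons: Kbr against control at each time, the difference between those effects, and 48 h against 24 h within each treatment. They share arrays, so they are not independent of each other. The fit without the block was tested on simulated data for Kbr against control at 24 h, with independent noise in each array. The block fit and the other comparisons were not tested in this way. The precision is limited by 3 arrays a group.

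Replicate numbers come from the labels. Deviations from group means correlated at r between 0.238 and 0.611 in all 18 array pairs with the same number. The numbers were therefore taken as pairing the arrays, though the labels do not say so, and a fit with the number as a block was run beside the main one. In the 36 pairs with different numbers r lay between -0.397 and -0.005. Deviations cancel within a group, so mostly negative values there follow from the positive ones and add no evidence of their own.

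A gene stands for itself by its single-gene probe set of highest mean (10574 of 19775 genes tested). Of the 4 pathway lists the text names 3 genes a time by size of change, with called genes taken first, and for the 3 members with the widest range of group means the 3 genes of highest Pearson r. Of the genes on the lists, 9 are not reported here. The members and lists were chosen with earlier results of these data known. Alternatives were another filter or none, median centring, quantile normalization, an offset of 32, 3 gene-level fits, array weights, another prior, a fit of only the groups compared, the block, stricter calls and leaving out each array. Promoters came from RefSeq's table for GRCh38.p14, 250 bases before each start. Figures were drawn with matplotlib 3.10.9 in Python 3.11.15.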

Additional observations from a re-analysis of the deposited data

How the results depend on the processing

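The counts of called probe sets moved with the threshold, the filter and the block. For Kbr against control at 24 h, 2 probe sets were called, against 1 at an adjusted p under 0.01, 1 with a change of at least 2-fold, 1 with no filter and 7 with the replicate block. Over all probe sets 4103 of 54613 were called with no filter and 9254 of 22215 with the block. Counts over all probe sets at the stricter p and at the 2-fold change are not given here. At 48 h, 8 became 2 with a change of at least 2-fold and 15 with the block, where 14552 of all 22215 were called. For the difference between the effects, 0 became 2 with array weights and 3 with the block. Over all 22215 probe sets 2600 and 3596 were called in these fits. For 48 h against 24 h in control, 2 became 0 at an adjusted p under 0.01, 0 with a 2-fold change, 1 with no filter, 1 with quantile normalization, 0 with only the groups compared and 7 with the block. Over all probe sets the last 4 settings called 217 of 54613, then 433, 0 and 3579 of 22215. For time with Kbr, 6 became 3 at an adjusted p under 0.01, 3 with no filter and 11 with the block. Over all probe sets 1661 of 54613 were called with no filter and 6262 of 22215 with the block. Leaving out 1 array gave 1 to 3 calls at 24 h, 6 to 11 at 48 h, 0 to 2 for the difference, 0 to 3 for time in control and 3 to 6 for time with Kbr. Over all 22215 probe sets the calls ran from 3509 to 6427 at 24 h and from 10522 to 12015 at 48 h. They ran from 224 to 2441 for the difference, from 17 to 875 for time in control and from 1113 to 4869 for time with Kbr. Apart from the calls named beside their results, the block changed no other call of these probe sets and ended none. Median centring changed no call.

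The sign turned in differences that were not called: CCNE1 at 24 h was 0.030 under quantile normalization, and CCNE2 with Kbr between the times was -0.0089 as the mean of its probe sets and 0.035 in 211814_s_at with array weights. Without single arrays CCNE1 ran from -0.089 to 0.0024 at 24 h and from -0.032 to 0.23 at 48 h, CDK6 at 24 h from -0.26 to 0.37 in 235287_at and from -0.069 to 0.55 in 243000_at, and 208711_s_at of CCND1 at 48 h from -0.0092 to 1.07. CCNE2 with Kbr between the times ran from -0.072 to 0.12 in 205034_at and from -0.14 to 0.073 in 211814_s_at. The causes were not tested. Values near the GCRMA floor, as in CDKN2B and 231259_s_at of CCND2, carry little information on size, and 3 arrays a group bound the differences only loosely, as the intervals show. The fit with only the groups compared gives no other value for the difference between the effects, since that uses all groups.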

Other observations

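The 4 pathway lists held 28, 27, 28 and 23 tested genes. Across them 8 genes had a Kbr effect that differed between 48 h and 24 h in limma's interaction test, where 4.4% of all tested genes did. These 8 were chosen after their values were seen. Those with the larger positive difference were CDC6 (2.02), JUN (1.14), which encodes an AP-1 subunit, and CDKN1A (1.05). CCNK, the cyclin of CDK12, followed at 0.75, MNAT1, the assembly factor of the CDK7 kinase, at 0.68, and LIN9, a subunit of a complex that binds RB relatives, at 0.55. The negative ones were RBL2 (-0.93) and IGF1R (-0.75), the receptor of insulin-like growth factor. The adjusted p of CDKN1A was 0.0335.

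In control cells, the E2F-driven genes called lower at 48 h than at 24 h were CCNA2 (-0.90), RRM2 (-0.44), CDC45 (-0.92), GINS2 (-0.46), UHRF1 (-0.89) and E2F8 (-0.67), and CDC25A (-0.87) and CCNB1 (-0.83) were called lower as well. CCNA2 encodes cyclin A2, the S phase partner of CDK2, and CDC45 is part of the replicative helicase.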
